A study of Mus musculus with 6 samples.

Results

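Toll-like receptors (TLRs) and the adaptors, kinases and regulators through which they signal were followed in RAW 264.7 cells, a mouse macrophage-like line. The members were 42 genes of this pathway, listed by name, and each gene was read at the brightest array probe that carries its symbol alone. Of the 42 genes, 33 had such a probe, of 13840 genes read in this way on the whole array. The receptor side, made up of TLRs, their co-receptors and accessory proteins, NOD receptors and Sigirr, had 16 measured genes of 18. The adaptor and kinase side had 17 of 24. Tlr4, Tlr6, Myd88, Ticam1, Irak4, Traf3, Ripk2, Chuk and Ikbkb had no probe of that kind and were not analysed here.

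The study compared 3 samples given 40 μM 15(S)-HETE together with 1 μg/mL LPS with 3 samples given that LPS alone, and RNA was taken at 24 h. 15(S)-HETE (15-HETE below) is a hydroxylated product of arachidonic acid that is found on the malaria pigment haemozoin, and LPS is the bacterial endotoxin. Cells of both groups thus carried LPS, and unstimulated cells were not analysed here, so every difference below is one between LPS-stimulated cells with and without 15-HETE. Each sample pooled 6 wells, and the labels give 5% serum in the medium whereas the methods state another percentage. The cells are a transformed line that need not respond as primary macrophages do. The labels call the samples biological replicates and the study describes its experiments as independent. The p-values from limma set the difference between the group means against the spread within the groups of these 6 samples. That spread is moderated by a prior shared over all probes.

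Toll-like receptors recognise microbial structures, those of the cell surface mainly lipids and proteins and those of endosomes nucleic acids. LPS is recognised by TLR4 with MD-2, and handed to it by LBP and CD14. Ligand binding brings the adaptors MyD88 and TIRAP, or TRIF and TRAM, to the receptor, and IRAK kinases, TRAF6 and the TAK1 complex then pass the signal to the IKK complex and NF-κB. The same pathway is dampened by TOLLIP, IRAK-M and SIGIRR.

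Intensities are linear chemiluminescent signals of 1 probe, quantile normalized by the authors, with an array median of 837 and a range of 46.2 to 3047300. A positive log2 fold change means a higher value in 15-HETE + LPS samples than in LPS samples, and it is given with standard errors (SE) from limma. A gene was called at an adjusted p under 0.05 after Benjamini-Hochberg adjustment over 33012 probes. A variant of limma in which the prior spread follows the intensity of the probe is termed the intensity trend, and its calls are given apart. Which arrays were run as 1 set is not given in the labels, and an effect of such sets and that of 15-HETE cannot be told apart. LPS replicate 1 stood apart from the other LPS samples for these genes. It was the highest LPS sample for 25 of 33 members (75.8%) and for 16 of 17 adaptors and kinases, against 47.3% of all genes. Among probes above the array median it was the highest for 82.1% of members, against 54.6% of all such genes. The members' median deviation from the mean of the LPS samples was 0.32 on the log2 scale in LPS replicate 1, -0.11 in LPS replicate 2 and -0.17 in LPS replicate 3, and log2 fold changes are therefore given also without it. Leaving it out changed the sign for 5 of 33 members, Tab1, Tbk1, Ticam2, Tlr8 and Unc93b1, all of them between -0.28 and 0.18 with all samples.

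Promoters are shown for Tollip and Tab2, the members that limma called higher after 15-HETE, with the GC box, a binding motif of Sp1 family factors, in capitals. Each runs 5′ to 3′ in RefSeq's GRCm38.p6 annotation and covers 250 bases before and 50 bases after the start of transcription. Tollip lies at chr7:141902412-141902711 and the upstream start of Tab2 at chr10:7956074-7956373, both on the minus strand.
Tollip: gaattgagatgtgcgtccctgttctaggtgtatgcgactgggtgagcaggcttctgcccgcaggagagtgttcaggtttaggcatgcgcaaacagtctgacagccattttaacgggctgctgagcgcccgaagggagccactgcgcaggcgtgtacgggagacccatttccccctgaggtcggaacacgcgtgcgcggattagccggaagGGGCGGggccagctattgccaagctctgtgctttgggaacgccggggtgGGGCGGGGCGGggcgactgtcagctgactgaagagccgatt
Tab2: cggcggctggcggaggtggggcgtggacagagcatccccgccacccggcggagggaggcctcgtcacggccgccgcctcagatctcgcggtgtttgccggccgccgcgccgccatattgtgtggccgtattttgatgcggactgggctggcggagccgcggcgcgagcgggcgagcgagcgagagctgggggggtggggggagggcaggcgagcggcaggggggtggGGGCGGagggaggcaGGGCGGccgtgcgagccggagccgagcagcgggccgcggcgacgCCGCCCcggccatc
The letters GGGCGG or their reverse complement occurred 3 times in each window, a pair of those in Tollip overlapping. Of the bases, 62% were G or C in the Tollip window and 78% in that of Tab2. Tab2 has a further start at chr10:7953016-7953315 whose window holds 0 GC boxes and 38.7% G or C. Both strands were searched in 34 promoters of 24 measured members, and matches to different motifs were counted independently of each other. The GC box was found in 18 of these 34 promoters (52.9%), of 16 members, and it occurs in 35.7% of 32851 mouse promoters of this length. Matches to the NF-κB consensus were found in 3 of 34 promoters, those of Map3k7, Tlr2 and Tlr3 (4.51% of all promoters). Matches to the AP-1 letters TGANTCA were found in 5, of Ikbke, Ikbkg and Tlr9 (7.81% of all promoters). Ikbkg entered this count with several starts, so the 5 are not separate genes. The nuclear receptor half-site AGGTCA was found in 6 of 34 promoters (17.6%), of Irak2, Irak3, Nod1, Tlr2, Tlr5 and Tlr9, a share near that of all promoters (16.3%). The interferon response core GAAANNGAAA was found in 0 of 34 promoters (3.44% of all promoters). These matches describe letters only, and Tollip and Tab2 had none other than the GC boxes.

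Among the 33 measured members, limma called 2 higher in 15-HETE + LPS cells, Tollip and Tab2, where 0.759% of all genes were called higher. It called 0 lower, where 0.368% of all genes were called lower. Both called genes belong to the adaptor and kinase side. All 17 genes of that side had a mean log2 intensity above the median of all probes, against 11 of 16 on the receptor side. At an unadjusted p under 0.05 there were 9 members higher (10.7% of all genes) and 5 lower (10.6% of all genes). The intensity trend called 7 members higher, namely Tollip, Tab2, Irak2, Pik3ap1, Ly86, Ikbkg and Tlr7, where it called 5.85% of all genes higher. It called 1 member lower, Traf6, where it called 5.33% of all genes lower. Over all members the median log2 fold change was 0.03, with 18 above 0 and 15 below, and over all genes it was 0.02. In RNA of a whole culture, fewer expressing cells and less RNA per cell cannot be told apart.

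**Figure D1:**
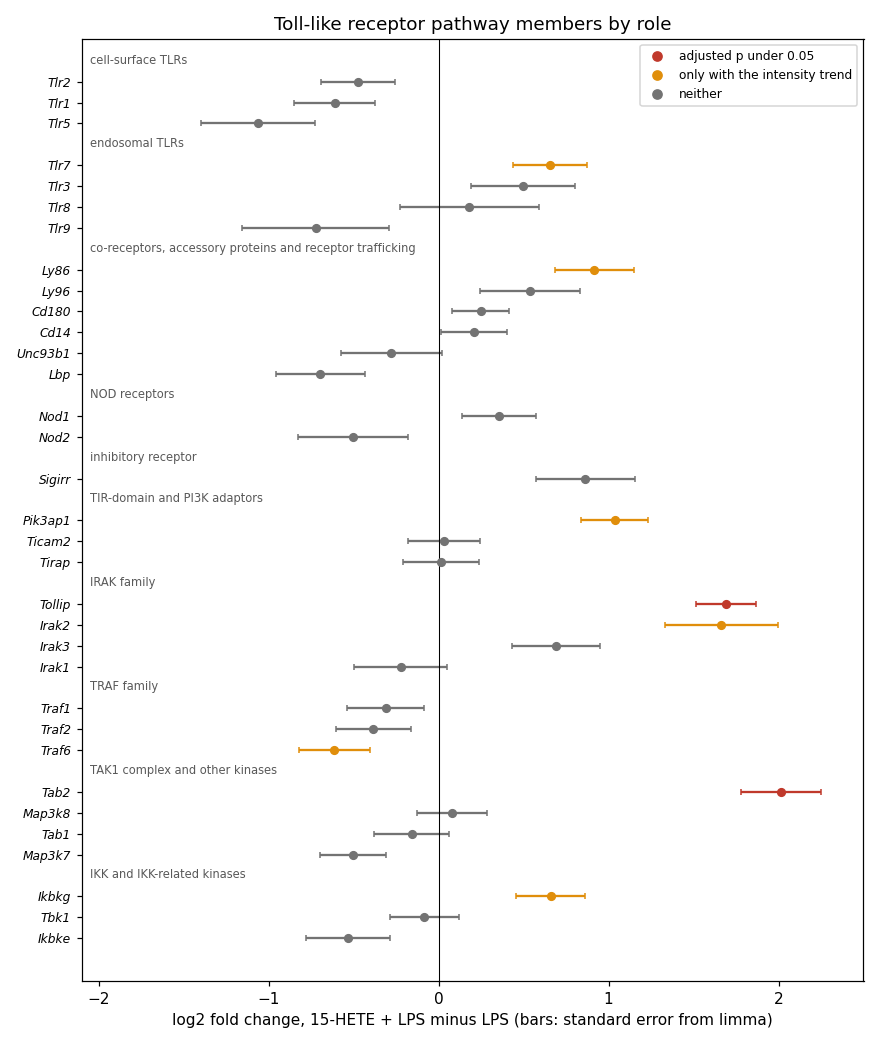
Log2 fold change (15-HETE + LPS minus LPS) of the 33 measured members, grouped by role, with bars for the standard error from limma. Tab2 at 2.01 and Tollip at 1.69 are called by limma, the 6 genes in orange are called only with the intensity trend, and the 3 measured cell-surface TLRs all lie below 0.

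TAB2 is the adaptor that binds ubiquitin chains and brings the kinase TAK1 to them. Tab2 read 9274, 10198 and 9091 in 15-HETE + LPS samples, against 3111, 1883 and 2230 in LPS samples. All 3 samples with 15-HETE thus lay above every LPS sample, and LPS replicate 1 was the highest of the LPS samples. The log2 fold change was 2.01 (SE 0.24, adjusted p = 0.0368 from limma, 4.04-fold), with a 95% confidence interval of 1.44 to 2.59. Without LPS replicate 1 it was 2.21. The kinase of the complex, TAK1, is encoded by Map3k7. That gene read 8480, 7915 and 8060 in 15-HETE + LPS samples and 13962, 10825 and 10239 in LPS samples. Its log2 fold change was -0.51 (adjusted p = 0.230) and, without LPS replicate 1, -0.37. Tab1, which encodes another TAK1-binding protein, stood at -0.16 (adjusted p = 0.729) and changed sign to 0.03 without LPS replicate 1. For Map3k8, the kinase TPL2, it was 0.08 (adjusted p = 0.866), and 0.22 without LPS replicate 1.

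TOLLIP binds IRAK kinases and restrains signalling from TLRs and the interleukin-1 receptor. Tollip read 10560, 11295 and 10284 in 15-HETE + LPS samples, against 3752, 3028 and 3205 in LPS samples. The groups did not overlap, and values within each group lay close together. The log2 fold change was 1.69 (SE 0.18, adjusted p = 0.0339 from limma, 3.23-fold), with a 95% confidence interval of 1.26 to 2.13, and it was 1.78 without LPS replicate 1. Over all 13840 genes, 0.903% had a log2 fold change above that of Tollip and 0.376% one above that of Tab2.

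The calls of both genes rested on all 6 samples. When limma was refitted to any 5 of the samples, it called 0 of all probes, and the adjusted p lay between 0.0677 and 0.185 for Tollip and between 0.0675 and 0.185 for Tab2. The fold changes themselves stayed between 1.63 and 1.78 for Tollip and between 1.85 and 2.21 for Tab2.

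**Figure D2:**
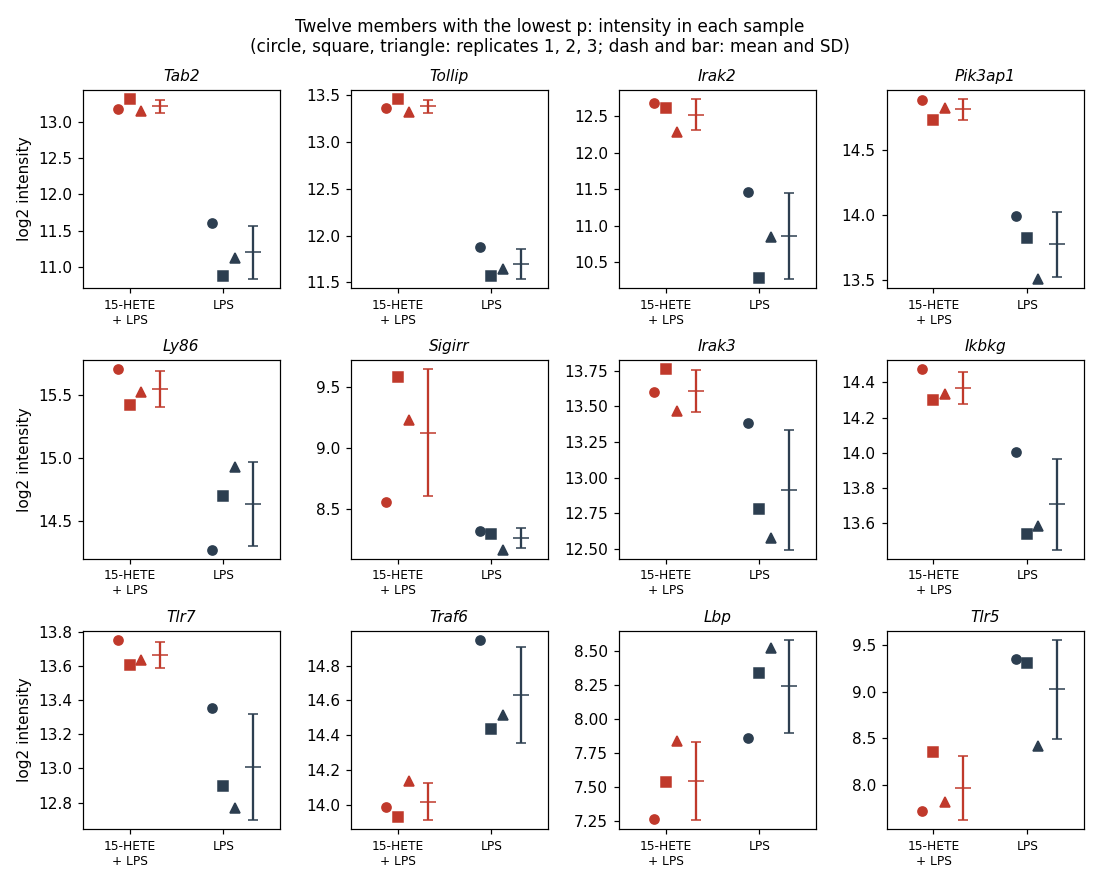
Log2 intensity in each sample for the 12 members with the lowest p from limma, with 15-HETE + LPS samples in red on the left and LPS samples in dark blue on the right, and the mean and SD beside them. For Tab2, Tollip, Irak2 and Pik3ap1 (higher) and Tlr5 (lower) the groups lie more than 1 log2 unit apart on average, and in Sigirr it is the 15-HETE + LPS samples that scatter.

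Of the other IRAK genes, Irak2 and Irak3 lay above LPS and Irak1 did not. IRAK2 is a kinase-like protein that keeps the response going at later times, and Irak2 read 6577, 6253 and 4977 in 15-HETE + LPS samples, against 2827, 1242 and 1831 in LPS samples. The groups did not overlap, but the LPS samples spread over more than a log2 unit. The log2 fold change of Irak2 was 1.66 (SE 0.33, 3.17-fold), with an adjusted p of 0.0758 from limma and 0.00916 with the intensity trend. It was 1.97 without LPS replicate 1. IRAK-M, encoded by Irak3, is an inhibitory member of the family found mainly in macrophages. Irak3 read 12410, 13867 and 11308 in 15-HETE + LPS samples and 10696, 7039 and 6126 in LPS samples. The lowest sample with 15-HETE lay just above LPS replicate 1, and well above the other LPS samples. Irak3 differed by 0.69 on the log2 scale (SE 0.26, adjusted p = 0.220 from limma). With the intensity trend its adjusted p was 0.0702. Without LPS replicate 1 the log2 fold change was 0.93, with an adjusted p of 0.0933 from limma and 0.000824 with the intensity trend. That trend fit called 5135 probes of the whole array, against 2917 with all samples. Irak1, the kinase that acts next to TRAF6, read 5423, 4028 and 3529 in 15-HETE + LPS samples and 6603, 4275 and 4344 in LPS samples, and these ranges overlapped (-0.22, adjusted p = 0.692). The value for Irak1 was -0.02 without LPS replicate 1. The median over these IRAK genes and Tollip was 1.18 on the log2 scale.

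Among the adaptors, BCAP, encoded by Pik3ap1, links TLRs to phosphoinositide 3-kinase and dampens inflammatory signalling. Pik3ap1 read 30241, 27099 and 28895 in 15-HETE + LPS samples, against 16333, 14461 and 11652 in LPS samples, with no overlap. Its log2 fold change was 1.04 (SE 0.20), with an adjusted p of 0.0711 from limma and 0.00358 with the intensity trend, and it was 1.15 without LPS replicate 1. The study lists this gene from the same arrays, so its direction is not independent evidence. The TIR-domain adaptors that could be read overlapped between the groups. Tirap read 2505, 2321 and 2319 in 15-HETE + LPS samples and 3062, 2010.3 and 2132 in LPS samples (0.01, adjusted p = 0.981). Ticam2, which encodes TRAM, stood at 0.03 on the log2 scale (adjusted p = 0.952). The 95% confidence interval ran from -0.49 to 0.54 for Ticam2 and from -0.53 to 0.55 for Tirap. Falls and rises up to those ends lie within it. Without LPS replicate 1 the log2 fold change was 0.20 for Tirap and -0.02 for Ticam2.

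The 3 measured TRAF genes all had log2 fold changes below 0, between -0.61 and -0.31. TRAF6 is the ubiquitin ligase between IRAKs and TAK1. Traf6 read 16237, 15624 and 18012 in 15-HETE + LPS samples, against 31609, 22142 and 23409 in LPS samples. The groups did not overlap, and LPS replicate 1 lay well above the other LPS samples. The log2 fold change was -0.61 (SE 0.21, 1.53-fold lower), with an adjusted p of 0.188 from limma and 0.0380 with the intensity trend, and it was -0.46 without LPS replicate 1. Traf6 was the 1 member with a further probe. That dimmer probe read 3785, 3875 and 3606 in 15-HETE + LPS samples and 4901, 4512 and 3179 in LPS samples, which overlap (-0.14, adjusted p = 0.772). Traf1 and Traf2, which serve TNF receptors, had log2 fold changes of -0.31 (adjusted p = 0.495) and -0.39 (adjusted p = 0.392). They were -0.15 for Traf1 and -0.21 for Traf2 without LPS replicate 1.

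Limma called 0 of the 3 measured IKK genes, where it called 0.759% of all genes higher and 0.368% lower. NEMO, the regulatory subunit of the IKK complex, is encoded by Ikbkg. Ikbkg read 22738, 20170.5 and 20645 in 15-HETE + LPS samples, against 16451, 11909 and 12270.0 in LPS samples, with no overlap. Its log2 fold change was 0.66 (SE 0.20, 1.58-fold), with an adjusted p of 0.157 from limma and 0.0264 with the intensity trend, and without LPS replicate 1 it was 0.81. Ikbke and Tbk1 encode the kinases that activate interferon regulatory factors. Ikbke read 38045, 33914 and 29599 in 15-HETE + LPS samples and 64662, 44409 and 40239.9 in LPS samples, a non-overlapping difference in the other direction (-0.53, adjusted p = 0.297), and the value was -0.33 without LPS replicate 1. Tbk1 overlapped between the groups (-0.09, adjusted p = 0.851), and without LPS replicate 1 its log2 fold change was 0.06.

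On the receptor side limma called 0 genes, where it called 0.759% of all genes higher and 0.368% lower. At an unadjusted p under 0.05, 3 of 16 were higher (10.7% of all genes) and 3 lower (10.6% of all genes). The intensity trend called 2 higher (5.85% of all genes) and 0 lower (5.33% of all genes). The 3 cell-surface TLRs that could be read lay lower in 15-HETE + LPS samples than in every LPS sample, as did 2455 of all 13840 genes. None had an adjusted p under 0.05 from limma, and Tlr4 and Tlr6 could not be read. TLR2 and TLR1 together recognise bacterial lipopeptides. Tlr2 read 47882, 42811 and 43238 in 15-HETE + LPS samples, against 77316, 60548 and 50552 in LPS samples (-0.47, adjusted p = 0.296). Tlr1 read 30034, 25708 and 28426 in 15-HETE + LPS samples and 54089, 44459 and 32636 in LPS samples (-0.61, adjusted p = 0.234). In both genes LPS replicate 1 was the highest and LPS replicate 3 came near the samples with 15-HETE. With the intensity trend and all samples the adjusted p was 0.0632 for Tlr1 and 0.102 for Tlr2. Without LPS replicate 1 the log2 fold change of Tlr1 was -0.44 and that of Tlr2 -0.31. Under the intensity trend their adjusted p values were then 0.0391 and 0.0449. That fit called 5135 probes of the whole array, against 2917 with all samples. It left out a sample that was singled out from the members' own values. TLR5 recognises flagellin. Tlr5 read 210.2, 327 and 225 in 15-HETE + LPS samples and 656, 635 and 340.2 in LPS samples, all below the array median. Its log2 fold change was -1.06 (SE 0.33, adjusted p = 0.161 from limma and 0.182 with the intensity trend), the lowest among the measured members, and it was -0.90 without LPS replicate 1.

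The endosomal TLRs had no common direction. TLR7 recognises single-stranded RNA. Tlr7 read 13793, 12468 and 12688 in 15-HETE + LPS samples, against 10478, 7635 and 6969 in LPS samples, with no overlap. Tlr7 thus differed by 0.66 on the log2 scale (SE 0.22), with an adjusted p of 0.176 from limma and 0.0421 with the intensity trend, and without LPS replicate 1 it was 0.83. Tlr3, the receptor for double-stranded RNA, read 1176, 1283 and 1009 in 15-HETE + LPS samples and 1253, 659 and 656 in LPS samples (0.50, adjusted p = 0.422). Only LPS replicate 1 reached the level of the samples with 15-HETE, and without it the value was 0.81. The value for Tlr8 was 0.18 (adjusted p = 0.842) and that for Tlr9, which recognises unmethylated CpG DNA, -0.72 (adjusted p = 0.411). Tlr9 read 491, 481 and 1271 in 15-HETE + LPS samples and 1261, 843 and 1269 in LPS samples, so 15-HETE + LPS replicate 3 reached the level of the LPS samples. Tlr8 stood at -0.10 and Tlr9 at -0.63 without LPS replicate 1.

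**Figure D3:**
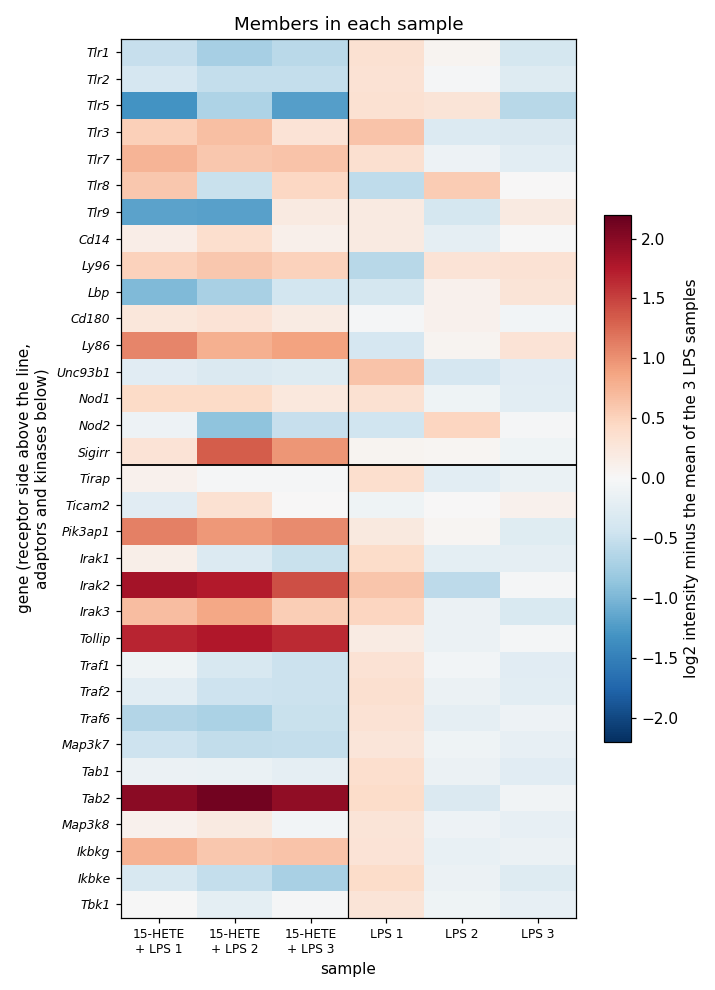
Log2 intensity minus the mean of the 3 LPS samples for each of the 33 measured members (rows) in each of the 6 samples (columns), red for higher and blue for lower, with the receptor side above the line and adaptors and kinases below it. LPS replicate 1 is the highest LPS sample in 16 of the 17 rows below the line and in 9 of the 16 above it.

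Among co-receptors and accessory proteins, MD-1, encoded by Ly86, pairs with the TLR-like protein RP105, encoded by Cd180, in a complex that modulates TLR4. Ly86 read 53401, 43825 and 47123 in 15-HETE + LPS samples, against 19736, 26606 and 31222 in LPS samples. The groups did not overlap, and here LPS replicate 1 was the lowest LPS sample. Ly86 differed by 0.92 on the log2 scale (SE 0.23, 1.89-fold), with an adjusted p of 0.113 from limma and 0.0118 with the intensity trend, and without LPS replicate 1 it was 0.73. Cd180 read 13312, 13819 and 12642 in 15-HETE + LPS samples and 10911, 11889 and 10715 in LPS samples, a non-overlapping difference of 0.25 on the log2 scale (adjusted p = 0.458) that was 0.23 without LPS replicate 1.

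MD-2, encoded by Ly96, is the LPS-binding partner of TLR4. Ly96 read 158059, 168288 and 157747 in 15-HETE + LPS samples, against 72514, 136332 and 138938 in LPS samples (0.54, adjusted p = 0.373). The size of this difference rested largely on LPS replicate 1, and without it the log2 fold change was 0.23. Cd14 read 347390, 405204 and 340768 in 15-HETE + LPS samples and 362525, 275373 and 311780 in LPS samples, which overlap. Its log2 fold change was 0.21 (adjusted p = 0.597), with a 95% confidence interval from -0.26 to 0.68, and it was 0.31 without LPS replicate 1. UNC93B1 carries the endosomal TLRs to their compartment. Unc93b1 read 287211, 272696 and 280247 in 15-HETE + LPS samples and 522028, 262314 and 285434 in LPS samples, so only LPS replicate 1 stood apart (-0.28, adjusted p = 0.646). Without it the log2 fold change was 0.03. Lbp, the gene of the LPS-binding protein that liver cells secrete, read 153, 185 and 228 in 15-HETE + LPS samples and 232, 323 and 368 in LPS samples. All of these values lay below the array median, and its log2 fold change was -0.70 (SE 0.26, adjusted p = 0.220 from limma and 0.298 with the intensity trend), or -0.89 without LPS replicate 1.

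SIGIRR is a receptor that inhibits TLR and interleukin-1 signalling. Sigirr read 377, 767 and 598 in 15-HETE + LPS samples, against 318, 314 and 287 in LPS samples, again below the array median. The samples with 15-HETE lay above all LPS samples but spread more widely, and the log2 fold change was 0.86 (SE 0.29, adjusted p = 0.182 from limma and 0.264 with the intensity trend), or 0.89 without LPS replicate 1. The NOD proteins sense peptidoglycan fragments in the cytosol. For Nod1 the log2 difference was 0.36 (adjusted p = 0.417 from limma and 0.266 with the intensity trend). Without LPS replicate 1 it was 0.53, with an adjusted p of 0.0163 under the intensity trend, where 5135 probes were called. For Nod2 it was -0.50 (adjusted p = 0.438), and -0.73 without LPS replicate 1.

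**Figure D4:**
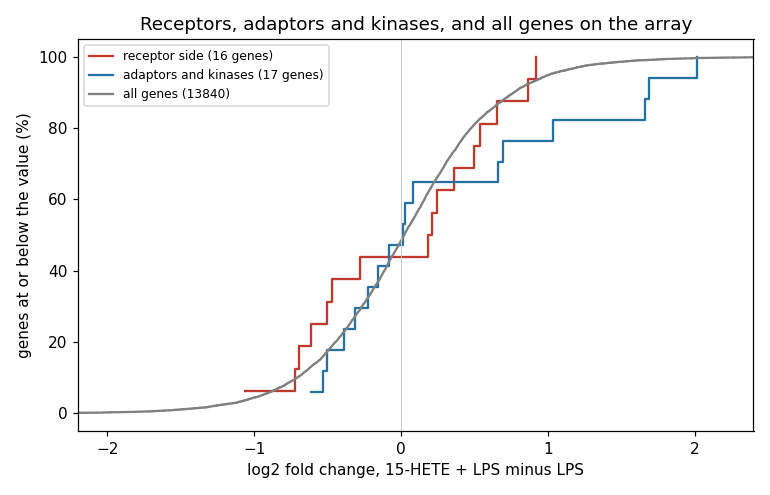
Cumulative share of genes (%) by log2 fold change (15-HETE + LPS minus LPS), for the 16 genes of the receptor side, the 17 adaptors and kinases, and all 13840 genes. Receptors end at 0.92, whereas adaptors and kinases reach 2.01, and the medians of both sides lie near that of all genes.

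Receptors as a group and adaptors and kinases as a group had medians close to that of all genes. The median log2 fold change was 0.19 over the 16 genes of the receptor side, 0.01 over the 17 adaptors and kinases, and 0.02 over all genes. On the receptor side 9 genes lay above 0 and 7 below, with a range from -1.06 to 0.92. Among adaptors and kinases 9 lay above 0 and 8 below, with a range from -0.61 to 2.01. The difference between the sides was not tested. Among the 28 members whose mean log2 intensity lay above the median of all probes, 10 had all 15-HETE + LPS samples above all LPS samples, where 24.0% of 8600 such genes did. Another 6 had them all below, where 23.8% of those genes did, a share of members near that background.

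**Figure D5:**
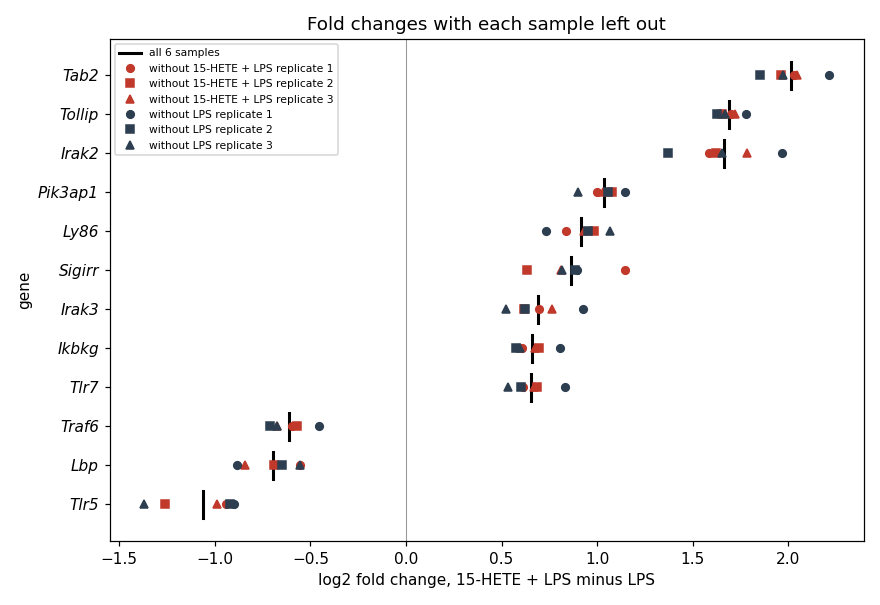
Log2 fold change (15-HETE + LPS minus LPS) of the 12 members with the lowest p, with all 6 samples (black tick) and with each sample left out (symbols). No value crosses 0, which was fixed in advance because the groups of these 12 members do not overlap. Tab2, Tollip, Irak2, Pik3ap1, Irak3, Ikbkg and Tlr7, all above 0, and Traf6 and Tlr5, both below 0, have their highest signed value without LPS replicate 1.

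With the intensity trend and 1 sample left out, Tollip, Tab2, Irak2 and Pik3ap1 were called in all 6 fits, and Ly86 in every fit but that without 15-HETE + LPS replicate 1. Tlr7, Ikbkg and Traf6 were called only in the fit without LPS replicate 1. That fit called 11 members higher and 4 lower, and it also took in Irak3, Nod1, Cd14 and Ly96 on the higher side and Tlr1, Tlr2 and Map3k7 on the lower side. Tlr1 was called lower also without LPS replicate 3. Without LPS replicate 1 it called 5135 probes of the whole array, and without any other sample between 1223 and 1562.

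Further genes of the TLR pathway outside the 42 were counted for context. Of 36 listed, 28 were measured, 12 above 0 and 16 below, with a median of -0.32 against 0.02 over all genes. Limma called 0 of them, where it called 0.759% of all genes higher and 0.368% lower. At an unadjusted p under 0.05, 3 were higher (10.7% of all genes) and 3 lower (10.6% of all genes). The intensity trend called 2 higher (5.85% of all genes) and 3 lower (5.33% of all genes). On the log2 scale Azi2, an adaptor of TBK1, differed by 0.69 (adjusted p = 0.136) and Tlr13, a receptor for bacterial ribosomal RNA, by 0.73 (adjusted p = 0.184). Peli1, a ubiquitin ligase that acts on IRAK1, had -0.97 (adjusted p = 0.0815) and Slc15a4, an endosomal transporter needed for TLR7 and TLR9 signalling, -1.11 (adjusted p = 0.101). Rnf31, a subunit of the linear ubiquitin ligase, had -0.69 (adjusted p = 0.159, and 0.0323 with the intensity trend). Of 12 transcripts that LPS induces, 9 were measured, 4 above 0 and 5 below, with a median of -0.21, and limma called 0. At an unadjusted p under 0.05, 1 was higher (10.7% of all genes) and 3 were lower (10.6% of all genes). Under the intensity trend Il1b was called higher (1.29), where 5.85% of all genes were. Il6 (-1.69), Nos2 (-0.96) and Tnf (-0.77) were called lower, where 5.33% of all genes were. The study names Il1b from these arrays.

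The labelled cell type was checked against marker lists. Of 8 macrophage markers 6 were measured, all above the median of all probes and all above 0 in log2 fold change (median 0.31). All 4 fibroblast markers also lay above that median, as did 1 of 3 B cell, 1 of 4 T cell and 1 of 4 epithelial markers. Lying above it therefore does not tell these cell types apart. The macrophage markers summed to 3316690 to 3394910 in 15-HETE + LPS samples and to 2257820 to 2927660 in LPS samples. Of them limma called Mrc1, the mannose receptor, higher (1.53, adjusted p = 0.0395), where 0.759% of all genes were called higher. The sum of 4 fibroblast markers was 12651 to 14850 in 15-HETE + LPS samples and 21320 to 26783 in LPS samples, with Dcn at -1.30 (adjusted p = 0.0587). Limma called 0 of the 4 fibroblast, 4 epithelial, 3 B cell and 4 T cell markers measured (0.759% of all genes higher and 0.368% lower). Among these, Dcn and Krt8 were lower (10.6% of all genes) and Cdh1 was higher (10.7% of all genes) at an unadjusted p under 0.05. The sum of epithelial markers was 2318 to 3709 in 15-HETE + LPS samples and 4311 to 5079 in LPS samples. B cell markers summed to 1709 to 5199.7 in 15-HETE + LPS samples and to 2185 to 2582 in LPS samples. T cell markers summed to 1927 to 2884 in 15-HETE + LPS samples and to 2399 to 3146 in LPS samples. No marker read 0. Of 8 housekeeping genes limma called 0, with a median of -0.10. At an unadjusted p under 0.05 Tbp and Tfrc were higher (10.7% of all genes) and Gusb was lower (10.6% of all genes). With the intensity trend Tfrc (1.26) and Tbp (0.49) were called higher among the housekeeping genes (5.85% of all genes). Dcn and Krt8 (-1.05) were called lower among the markers of other cell types (5.33% of all genes). The part of any of these lists in the members' values was not tested.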

How the data were processed

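Total RNA of 3 samples given 15-HETE + LPS and 3 given LPS was labelled and hybridized to ABI mouse genome survey arrays with 1 chemiluminescent signal per probe. The deposited intensities were made by the authors with the AB1700 software and quantile normalized, and the labels and methods name no background correction. All samples share 1 distribution (sorted values differ by at most 0.224%), which removes any difference in total signal between samples. The filter on S/N and flags was not repeatable, so all 33012 probes were tested.

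Intensities were turned to log2 and fitted with limma 3.58.1 in R 4.3.3 (lmFit, eBayes with the default prior, two-sided, Benjamini-Hochberg over all probes, calls at an adjusted p under 0.05), which was tested on simulated data first. The platform annotation gives 1 symbol for 14411 probes, of which 14402 matched RefSeq by gene id. Promoters were placed by RefSeq's GRCm38.p6 coordinates, and the probes were given no coordinates, as the build of the array is not given in the sources used here. The methods state a t-test with unequal variances at a fold of 1.8 and an adjusted p of at most 0.025, which was run as an alternative. Other alternatives were the intensity trend, cyclic loess, an offset of 50, dropping dim probes, averaging probes, blocking on the replicate number, and dropping 1 sample at a time.

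Members and lists were chosen with earlier results of these data known. Values in every sample were to be given for members called with or without the intensity trend and for the 12 with the lowest p, and examples elsewhere were the brightest members of a role group or members whose samples are described singly, chosen after their values were seen. Of other pathway genes, those called with or without the intensity trend and the 2 with the lowest p in each direction were named. The number of arrays limits the precision.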

Additional observations from a re-analysis of the deposited data

How the results depend on the processing

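The 2 calls of higher members, Tollip and Tab2, stayed at 2 with cyclic loess, an offset of 50 and the mean of all probes of a gene. The intensity trend called 7 higher and 1 lower (2917 probes of the whole array, against 314), and keeping only probes above the array median called 6 higher and 0 lower (2796 probes), adding Irak2, Pik3ap1, Ly86 and Ikbkg. The cause of these differences was not tested. The methods' t-test called 0 members after adjustment over all probes (adjusted p 0.109 for Tollip and 0.183 for Tab2, 0 probes on the array) and 0 at the methods' thresholds (0.0309 and 0.0647, 88 probes). This run lacked the study's filter on S/N and flags and called fewer probes than the transcripts the study reports. The study lists Pik3ap1 as altered, whereas its adjusted p was 0.0742 in this run at the methods' thresholds. With the replicate block limma called 0 members and 0 probes, and Tollip and Tab2 had an adjusted p of 0.207. Same-numbered samples did not deviate together (correlations of -0.02, 0.00 and 0.02), so the numbers were not taken as pairs. Leaving out 1 sample gave 0 to 0 calls of members with limma. With the intensity trend, added after seeing the data, it gave 4, 5 or 11 calls of higher members (a range of 4 to 11) and 0, 1 or 4 of lower ones (a range of 0 to 4), both highest without LPS replicate 1. The receptor median stayed between 0.11 and 0.20 with 1 sample left out, and the adaptor and kinase median between -0.10 and 0.06, below 0 without 15-HETE + LPS replicate 1 or 2 or LPS replicate 2 or 3. None of the 12 members with the lowest p reversed its direction in any setting tried. The groups did not overlap for any of these 12, so leaving out 1 sample could not have reversed them. Of all 33 members, 7 changed sign with 1 sample left out, Tab1, Tbk1, Ticam2, Tirap, Tlr8, Map3k8 and Unc93b1, of which limma called 0 with all samples. Probes below the array median, those of Tlr5, Tlr8, Lbp, Nod2 and Sigirr, had larger standard errors under the intensity trend.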
